A study of Mus musculus with 18 samples.

Results

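The genes described here carry the names of protein subunits of the cytosolic ribosome and were read in mouse basophils. They were chosen by symbol and level: a row was taken where its symbol had the form of a ribosomal protein name (Rpl, Rps or Rplp with a number and, in some, a letter) and its mean over the 18 libraries was at least 50 estimated counts. Of 56413 rows in the table, 89 had such a symbol and 82 also reached the level. All 82 passed the filter on low counts and entered the test, which covered 14076 genes. Rps4l, with a mean of 70.2 estimated counts, and Rpl13, with 121, lay just inside the limit, and Rpl6l with 6.88, Rps3a3 with 5.47 and Rpl39l with 1.28 lay outside it. Rpl3l, Rpl32l, Rpl10l and Rps12l1 were at or near 0.

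The 82 members comprised 46 genes of the large subunit, 30 of the small subunit and 6 paralogs or further copies (Rps27l, Rpl22l1, Rpl36al, Rpl7l1, Rps4l and Rps3a2). Of the 6, Rps4l and Rps3a2 had no coding sequence in the annotation used for lengths. The cytosolic ribosome joins a small subunit, which reads messenger RNA, to a large subunit, which forms peptide bonds, and each of its proteins is needed in about equal amounts. Messenger RNAs of ribosomal proteins belong to the TOP class: they start with a C followed by an unbroken run of pyrimidines, through which the kinase mTORC1 and the RNA-binding protein Larp1 control their translation, so that their abundance and their use need not change together. Many have left processed pseudogenes in the mouse genome, copies of the spliced messenger RNA that resemble it closely.

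The cells were basophils derived from bone marrow of mice, cultured with IL-3 at 0.3 ng/mL over 7 days and enriched on magnetic beads for CD49b. All groups, controls included, carried TNP-specific IgE, given at 1 µg/mL on day 6. Each genotype received 10 ng/mL of ovalbumin (OVA) without hapten for 2 h (control), or 10 ng/mL of TNP-coupled OVA, the antigen of that IgE, for 2 h or 4 h. The genotypes were wild type (WT) and TTP-KO, for tristetraprolin, an RNA-binding protein that promotes decay of messenger RNAs with AU-rich elements. Each of the 6 groups had 3 libraries, made from polyadenylated RNA of cell lysates, and no control at 4 h is among them. The labels do not state whether replicate libraries are of different mice or cultures, and all p-values refer to the spread among these libraries, part or all of which could be technical.

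Library totals ran from 5516580 to 12733172 estimated counts. Zfp36, which encodes tristetraprolin, was read in every library: 224 to 247 CPM (counts scaled to the TMM-adjusted size of the library) in WT control, 219 to 228 in the control libraries labelled TTP-KO, 439 to 460 in WT at 2 h and 553 to 572 in those labelled TTP-KO at 2 h. Which part of the gene was deleted is not stated in the sources used here, so that the row is no check of the genotype, and TTP-KO below names libraries by their label. The 12 basophil markers (Mcpt8 and Fcer1a among them) summed to between 26050 and 31520 CPM, with none at 0. Markers of other cells differed by genotype: in control, 12 neutrophil markers summed to 1502 to 1684 CPM in WT and 2220 to 2579 in TTP-KO, 10 macrophage markers to 9347 to 9462 and 10740 to 11190, 9 B and T cell markers to 62.2 to 69.3 and 26.8 to 34.1, and 8 mast cell markers to 230.0 to 243 and 137 to 147, with Mrgprb1 at 0 in both and Mrgprb2 at 0 in TTP-KO. The 6 platelet markers summed to 1923 to 2298 and 1666 to 2233 CPM, and the 7 erythroid markers to 43.0 to 65.3 and 29.7 to 38.3. The part of these cells in the values below was not tested. In bulk libraries, fewer cells of a type and less RNA per cell cannot be told apart.

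The starts of the genes on which the results turn are shown to let the pyrimidine runs be compared. Each window holds the 10 bases before the transcription start annotated by RefSeq (build GRCm38.p6) and the 20 bases from the start on, read 5′ to 3′ on the strand of the gene, and capitals mark the longest run of C and T. Where a gene has several annotated starts, the one with the longest run is shown.
Rplp0: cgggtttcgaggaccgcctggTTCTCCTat
Rps4x: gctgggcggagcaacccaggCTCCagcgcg
Rpl13a: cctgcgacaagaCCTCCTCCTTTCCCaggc
Rps24: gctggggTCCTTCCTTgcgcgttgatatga
Rpl34: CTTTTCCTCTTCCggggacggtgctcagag
Rps27l: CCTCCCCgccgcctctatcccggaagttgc
Rpl7l1: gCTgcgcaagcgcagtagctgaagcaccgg
These windows lie at chr5:115559457-115559486 on the plus strand for Rplp0, chrX:102189372-102189401 (minus) for Rps4x, chr7:45128726-45128755 (minus) for Rpl13a and chr14:24490668-24490697 (plus) for Rps24. Those of Rpl34, Rps27l and Rpl7l1 lie at chr3:130730318-130730347 (minus), chr9:66946076-66946105 (plus) and chr17:46782637-46782666 (minus). The run was 14 bases long at Rpl13a, 13 at Rpl34, 9 at Rps24, 7 at Rplp0 and Rps27l, 4 at Rps4x and 2 at Rpl7l1.

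Of the 82 members, 60 had an entry in the RefSeq promoter table, with 71 starts. A run of at least 8 pyrimidines on the strand of the gene lay within the window at 24 of the 71 starts (33.8%), against 11.2% of all 32851 starts in the table. Counted by gene, 24 of the 60 matched members and 13.0% of all 27025 genes had it at any start. Annotated starts can lie some bases from the one a cell uses, and a start in this table was not measured in these cells, so that the share describes the sequences and not the RNAs. Rpl7l1 encodes a relative of Rpl7 that acts in ribosome assembly, and its window had no such run, nor did those of Rplp0, Rps4x and Rps27l.

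The rows of the 82 members took 2.39% to 3.60% of all estimated counts of a library. With rows named as ribosomal protein pseudogenes (-ps) added, the range was 3.08% to 4.69%. In WT the share of the member rows was 3.27% ± 0.307 (SD, n = 3) in control, 2.61% ± 0.142 after 2 h of antigen and 2.45% ± 0.0814 after 4 h. In TTP-KO it was 3.15% ± 0.0680, 2.79% ± 0.169 and 2.74% ± 0.117. Control libraries were the highest in both genotypes, and the 3 values of each antigen group lay below all 3 of its control, without a test of this share. A share of the library moves with all other genes, and scaling changes it: the factors of TMM (a scaling that assumes most genes unchanged) averaged 1.10 in WT control, 0.878 at 2 h and 1.01 at 4 h. The changes below are on that scale, on which the members did not share this fall at 2 h (median log2 fold changes of -0.00 in WT and 0.22 in TTP-KO).

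After 2 h of antigen in WT, 4 members rose and none fell (of all genes tested, 17.8% were called higher and 17.3% lower), and the median log2 fold change of the 82 was -0.00, against -0.05 for all genes. With library totals in place of TMM factors, 0 members rose and 36 fell, beside 1281 and 6415 of all genes tested. The median of all genes then shifted to -0.37 and that of the members to -0.33. The risers were Rpl10 (log2 fold change 0.73 ± 0.21, SE, adjusted p = 0.0155), Rps7 (0.54 ± 0.19, adjusted p = 0.0413), Rpl7l1 (0.21 ± 0.07, adjusted p = 0.0193) and Rpl19 (0.15 ± 0.04, adjusted p = 0.00363). With library totals the values of Rpl7l1 and Rpl19 were -0.12 and -0.17. Rpl10 stood at 90.7, 84.9 and 74.7 CPM in the WT controls and at 155, 139 and 120 after 2 h, with no overlap. Most estimated counts of Rpl10 and Rps7, a protein of the large and of the small subunit, lay on pseudogene rows, and with those rows added their changes were 0.03 and 0.10 and not called. Without WT control library 3, 1 member rose and 1 fell, and without WT library 2 at 2 h 2 rose. The call of Rpl19 was lost with no filter (adjusted p = 0.0584), that of Rpl7l1 with no filter and without either of those 2 libraries, that of Rpl10 with library totals and without control library 3 or library 1 at 2 h, and that of Rps7 with library totals, with no filter and without 5 of the 6 libraries (adjusted p from 0.0784 to 0.149).

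In TTP-KO, 13 members rose at 2 h and none fell (background 17.8% higher and 16.6% lower), with a median of 0.22 against -0.03 for all genes. With library totals 0 rose and 25 fell, beside 1218 and 6458 of all genes tested. The medians were -0.12 for the members and -0.37 for all genes. Rpl22l1 (0.51 ± 0.17, adjusted p = 0.0265), Rplp1 (0.45 ± 0.14, adjusted p = 0.0243) and Rpl7l1 (0.39 ± 0.07, adjusted p = 4.72e-05) were among the risers. The calls of Rpl22l1 and Rplp1 were lost with no filter (adjusted p = 0.0772 and 0.0701) and without TTP-KO control library 1 or 2 or library 1 or 2 at 2 h (adjusted p from 0.0667 to 0.106 and from 0.0525 to 0.111), and with library totals the 3 changes were 0.18, 0.11 and 0.06 and not called. Rpl22l1 is a paralog of Rpl22, and Rplp1 belongs to the stalk on which translation factors dock. Rplp1 stood at 828, 819 and 898 CPM in the TTP-KO controls and 1326, 1133 and 1012 at 2 h, with all of the latter above the former, and its first library at 2 h highest. The count of risers was 6 and 5 without the first and the second TTP-KO control library and 7 and 8 without the first and the second library at 2 h, and the median was 0.12 without that first library. Rpl7l1 and Rpl19 rose in both genotypes, 2 of the 4 WT risers and 2 of the 13 in TTP-KO. The overlap among all genes called higher is not given here. The difference between the genotypes in the response at 2 h was called for 0 members in either direction (background 0.0355% higher and 0.0142% lower), with a median of 0.21, or 0.10 without the first WT control library. At an unadjusted p under 0.05, edgeR had 4 members higher and 0 lower, and DESeq2 called 0 after adjustment. The share of all genes at that unadjusted cutoff is not given here.

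After 4 h in WT, 23 of the 82 ribosomal protein genes fell and 2 rose (background 18.4% lower and 19.6% higher), and 71 of the 82 log2 fold changes were below 0, with a median of -0.29 against -0.01 for all genes. With library totals 49 were lower, beside 3718 of all genes tested, with medians of -0.42 and -0.13. In the same comparison 8 of 12 neutrophil markers fell and none rose, with a median of -0.48, and 7 of 12 basophil markers fell and 5 rose, with a median of -0.24, and their part in the falls was not tested. Rplp0, the base of the ribosomal stalk, stood at 1550, 1572 and 1650 CPM in WT control and at 1352, 1312 and 1278 at 4 h (log2 fold change -0.28 ± 0.03, adjusted p = 1.04e-07). Rps4x, a small subunit protein encoded on the X chromosome, stood at 936, 941 and 946 and then at 766, 723 and 727 CPM (-0.35 ± 0.04, adjusted p = 1.28e-08). Every library at 4 h lay below every control library for both genes.

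Among the called falls in WT at 4 h were Rpl36a (-0.73 ± 0.25, adjusted p = 0.0372), Rpl32 (-0.48 ± 0.13, adjusted p = 0.00939) and Rpl26 (-0.42 ± 0.13, adjusted p = 0.0270). Rpl32, of the large subunit, fell from 679, 556 and 452 CPM to 417, 378 and 417 with no overlap. The values of Rpl36a, a large subunit protein, overlapped between the groups: 106, 78.4 and 44.2 CPM in control and 53.2, 43.4 and 40.6 at 4 h, and the call was lost without the first control library (-0.39, adjusted p = 0.224), without control library 2 or library 2 or 3 at 4 h (adjusted p from 0.0841 to 0.113), with no filter (adjusted p = 0.0896), with -ps rows added (-0.53, adjusted p = 0.0588) and with the compared groups alone (adjusted p = 0.212). The call of Rpl26, also of the large subunit, was lost without control library 1 (-0.26, adjusted p = 0.137), without control library 2 or any library at 4 h (adjusted p from 0.0552 to 0.0726), with no filter (adjusted p = 0.0787) and with the compared groups alone (adjusted p = 0.0951), and that of Rpl32 with the compared groups alone (adjusted p = 0.0890). Of the large subunit genes 14 of 46 fell and of the small subunit genes 9 of 30, with medians of -0.29 and -0.34, and the 6 paralogs had 1 riser and a median of 0.11. The count of falls was 39 without WT control library 3 and 19 to 24 without any other single library of the 2 groups; without the first WT control library the median was -0.17.

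The same comparison in TTP-KO gave 20 members lower and 4 higher (background 16.7% lower and 18.3% higher), and 32 of the 82 values were below 0, with a median of 0.07. Of the neutrophil markers 8 of 12 fell and none rose, with a median of -0.40. With library totals the median was -0.07, and that of all genes -0.12. Of the genes called lower, 17 were shared, which is 17 of the 23 in WT and 17 of the 20 in TTP-KO, among them Rpl3, Rpl4, Rpl6, Rpl7, Rpl7a, Rpl9, Rpl13a, Rpl18, Rpl29, Rplp0, Rps3, Rps3a1, Rps4x and Rps9. The 2 comparisons have no library in common. Rps4x stood at 853, 888 and 897 CPM in TTP-KO control and 716, 713 and 702 at 4 h (-0.31 ± 0.04, adjusted p = 1.38e-07), and Rplp0 at 1456, 1500 and 1483 and then at 1262, 1241 and 1232 (-0.25 ± 0.03, adjusted p = 6.79e-07). The groups did not overlap for either gene. Rps6, the small subunit protein that S6 kinase phosphorylates, was also called lower (-0.31 ± 0.10, adjusted p = 0.0283), with 61.5% of its counts on copy rows. That call was lost without TTP-KO control library 2 or 3 or any library at 4 h (adjusted p from 0.0505 to 0.114).

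Rpl5, which carries the 5S ribosomal RNA into the large subunit together with Rpl11, had a called fall in TTP-KO (-0.92 ± 0.33, adjusted p = 0.0442). Its row stood at 330, 373 and 317 CPM in control and at 183, 187 and 169 at 4 h. The call was lost with the row filter removed (adjusted p = 0.105) and without any 1 of the 6 libraries of these groups (adjusted p from 0.072 to 0.116). The rows of near-identical copies held 70.6% of the counts of this family, and with them the change was -0.39 ± 0.04 in TTP-KO and -0.31 ± 0.04 in WT, called in both. Rpl11 was not called in either genotype (-0.11 ± 0.19 in WT and 0.02 ± 0.19 in TTP-KO).

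**Figure D1:**
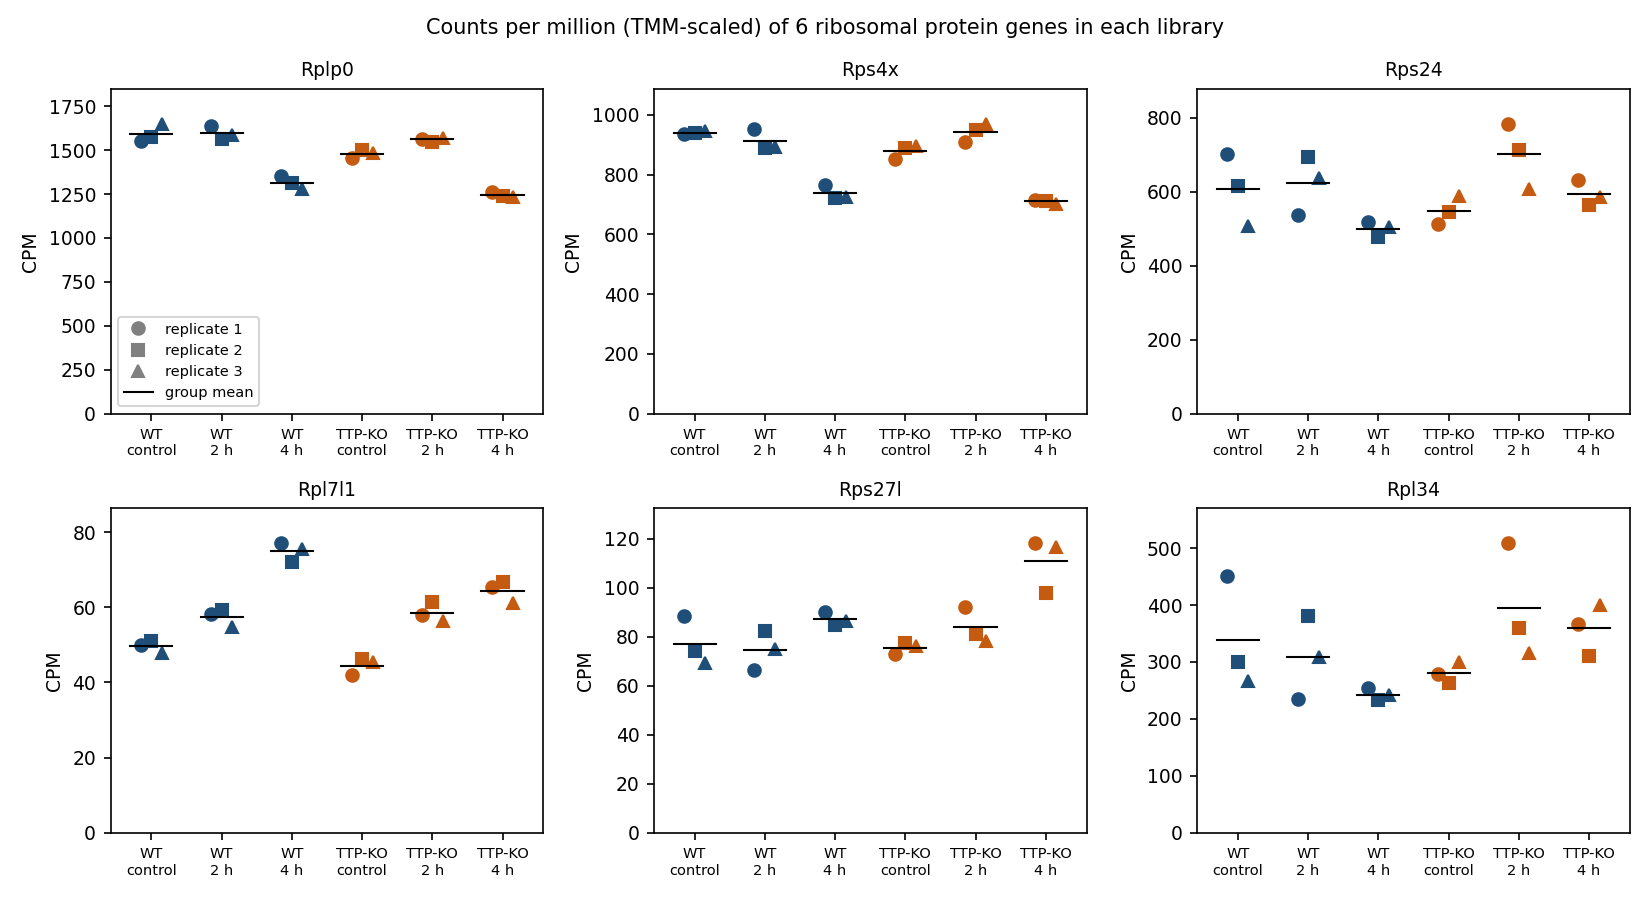
TMM-scaled CPM (vertical axes from 0) of Rplp0, Rps4x, Rps24, Rpl7l1, Rps27l and Rpl34 in the 18 libraries, with a point per library, its shape giving the replicate number, and a line at each group mean. Rplp0 and Rps4x were lowest at 4 h in both genotypes with libraries close together, Rpl7l1 was above control at 2 h and 4 h, and the libraries of a group lay far apart for Rps24 and Rpl34.

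From 2 h to 4 h, 23 members fell in WT and 2 rose (background 15.9% lower and 15.2% higher), and in TTP-KO 23 fell and 1 rose (background 16.2% lower and 14.6% higher). The medians were -0.28 and -0.19, and all genes had medians of 0.02 and 0.03 on this scale. With library totals 9 fell and 5 rose in WT, beside 1191 and 4614 of all genes tested. In TTP-KO 9 fell and 4 rose, beside 1237 and 4636. The medians were then -0.08 and 0.01 for the members and 0.22 and 0.23 for all genes. Among the falls were those of Rps14 (-0.41, or -0.21 and not called with library totals), Rps10 (-0.40) and Rpl13a (-0.37) in WT and of Rps4x (-0.41) and Rplp0 (-0.33) in TTP-KO. Of these, Rplp0 and Rpl13a belong to the large subunit and the rest to the small one. The shared falls were 21 of 23 in each genotype, and these comparisons use the same 4 h libraries as those above. The overlap among all genes that fell is not given here. For Rplp0 and Rps4x the libraries at 2 h lay all above those at 4 h in both genotypes. Without the first WT library at 2 h the count of falls in WT was 36, and the median in TTP-KO was -0.08 without its first library at 2 h. The risers were Rpl7l1 (0.38 ± 0.07) and Rpl12 (0.55 ± 0.13) in WT and Rps27l (0.41 ± 0.09) in TTP-KO, where 2 rose without the first library at 4 h.

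Rpl7l1, the assembly factor named above, rose in both genotypes, from 50.1, 51.2 and 47.8 CPM in WT control to 58.2, 59.2 and 54.9 at 2 h and 77.1, 72.0 and 75.6 at 4 h (0.59 ± 0.07 at 4 h, adjusted p = 3.21e-08). In TTP-KO it stood at 41.9, 46.3 and 45.4, then 57.9, 61.5 and 56.3, and then 65.3, 66.7 and 61.2 CPM (0.53 ± 0.07 at 4 h, adjusted p = 3.93e-07). No library of an antigen group overlapped with control in either genotype. The main member Rpl7 moved the other way, at -0.22 ± 0.03 in WT and -0.24 ± 0.03 in TTP-KO.

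Rps27l, a paralog of Rps27 that is known as a target of p53, rose at 4 h in TTP-KO (0.55 ± 0.09, adjusted p = 3.34e-05), from 73.2, 77.3 and 76.3 CPM to 118, 97.7 and 117. In WT it had 0.17 ± 0.09 (adjusted p = 0.141), with 88.6, 74.1 and 69.2 CPM in control and 90.1, 84.9 and 86.4 at 4 h, which overlap. The difference of the responses was 0.38 ± 0.13 and not called (adjusted p = 0.234). Rps27 itself had -0.36 ± 0.28 in WT and 0.32 ± 0.28 in TTP-KO, neither called. Of 16 genes of the p53 pathway, 3 rose and 3 fell at 4 h in WT, and 3 rose and 4 fell in TTP-KO, which is 18.8% higher and 18.8% lower in WT and 18.8% and 25% in TTP-KO, beside 19.6%, 18.4%, 18.3% and 16.7% of all genes. Pmaip1, which encodes the death protein Noxa, rose by 1.05 ± 0.07 and 0.91 ± 0.07.

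Rpl12 was called higher in both genotypes on its own row (0.70 ± 0.13 in WT and 0.47 ± 0.14 in TTP-KO). In TTP-KO the call was lost with library totals (adjusted p = 0.0692) and without control library 3 (adjusted p = 0.0594). Its near-identical copies held 92.7% of the counts, and with them its change was -0.15 ± 0.05 in WT (adjusted p = 0.0103) and -0.03 ± 0.05 in TTP-KO (adjusted p = 0.712).

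The other paralogs were not called at 4 h in either genotype. Rpl22l1 had -0.21 ± 0.16 in WT and 0.30 ± 0.16 in TTP-KO, and Rpl22 -0.37 ± 0.17 and 0.05 ± 0.17. Rpl36al, a second gene for a protein like that of Rpl36a, had 0.04 ± 0.16 and 0.37 ± 0.16. Rps4l, at 5.30 to 10.9 CPM over the 18 libraries, and Rps3a2, at 25.8 to 47.4, were not called in any comparison. Rps3a1, the main gene beside Rps3a2, fell in both genotypes (-0.31 ± 0.04 and -0.23 ± 0.04). Of the stalk, Rplp1 and Rplp2 were not called at 4 h, at -0.15 ± 0.14 and -0.19 ± 0.23 in WT and 0.34 ± 0.14 and 0.48 ± 0.23 in TTP-KO.

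Between the genotypes in control, 0 members were called higher and 0 lower (background 0.412% higher and 1.24% lower), with a median of -0.10. At an unadjusted p under 0.05, edgeR had 0 higher and 5 lower, and DESeq2 called 1 lower, beside 213 of all genes. At 2 h, again 0 were called higher and 0 lower (background 0.909% and 1.88%), with a median of 0.10, with 3 higher and 1 lower at an unadjusted p under 0.05 and 0 called by DESeq2. At 4 h, 1 was higher in TTP-KO and 1 lower (background 1.83% and 3.4%), with a median of 0.23. At an unadjusted p under 0.05, 20 were higher and 4 lower at 4 h. The share of all genes at that unadjusted cutoff is not given here, so the unadjusted counts have no background.

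The member higher in TTP-KO at 4 h was Rps27l, with 118, 97.7 and 117 CPM against 90.1, 84.9 and 86.4 in WT (0.35 ± 0.09, adjusted p = 0.0183). The member lower was Rpl7l1, with 65.3, 66.7 and 61.2 against 77.1, 72.0 and 75.6 CPM (-0.22 ± 0.07, adjusted p = 0.0467). Neither gene's groups overlapped. The call of Rps27l was lost without WT library 2 or 3 or TTP-KO library 1 or 3 at 4 h (adjusted p from 0.0797 to 0.106), and that of Rpl7l1 without any of the 6 (adjusted p from 0.0728 to 0.222) with library totals (adjusted p = 0.0858) and with no filter (adjusted p = 0.0856). In all, 44 members, Rps27l among them, had all 3 TTP-KO libraries above all 3 of WT at 4 h, and 6 had all below (of all genes, 12.3% and 12.8%). Rps24 was one of the 44, at 633, 565 and 587 against 517, 479 and 504 CPM (0.25 ± 0.13, adjusted p = 0.344). When only these 6 libraries entered the fit, 32 members were called higher, of 503 genes higher and 627 lower in all. At 4 h the neutrophil markers summed to 1056 to 1138 CPM in WT and 1965 to 2208 in TTP-KO, and the macrophage markers to 7376 to 7880 and 9144 to 9771, and their part in these differences was not tested.

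For the difference between genotypes in the response at 4 h, 0 members were called higher and 0 lower (background 0.277% higher and 0.412% lower), with a median of 0.33. At an unadjusted p under 0.05, edgeR had 28 members higher and 0 lower. The share of all genes at that unadjusted cutoff is not given here, so this count has no background. After adjustment DESeq2 called 1 member higher, beside 71 of all genes. Without WT control library 3 edgeR called 1, and without the first the median was 0.21. This comparison shares its libraries with the genotype comparisons in control and at 4 h.

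The length of the coding sequence, which the choice of members did not use, separated the members, a split chosen after the data were seen. Of the 80 members with a coding length in the annotation, 40 lay under the median of 454.5 bases and 40 above. Across the 80, coding length and the spread between libraries of a group (SD of log2 CPM) had a Spearman rho of -0.70, and coding length and the log2 fold change at 4 h in WT one of 0.46. The median spread was 0.22 for the shorter and 0.09 for the longer members on the log2 scale. Rpl7, Rpl4 and Rplp0 varied least (0.02, 0.03 and 0.03) and Rpl17 most (0.66).

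Among the longer members at 4 h, 19 of the 40 were called lower and 2 higher in WT (background 18.4% lower and 19.6% higher), with a median of -0.22. In TTP-KO 20 were lower and 3 higher (background 16.7% and 18.3%), with a median of -0.15. Their genotype difference at 4 h had a median of 0.01, with 21 of 40 values above 0. Rpl4, a long protein that lines the peptide exit tunnel, stood at 744, 779 and 787 CPM in WT control and 659, 667 and 665 at 4 h, and at 785, 761 and 787 and then 644, 637 and 644 in TTP-KO. In both genotypes its control libraries lay above those at 4 h.

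The shorter members had 4 lower and 0 higher at 4 h in WT (background 18.4% lower and 19.6% higher), with a median of -0.36. In TTP-KO they had 0 lower and 1 higher (background 16.7% and 18.3%), with a median of 0.24. Their genotype difference at 4 h was above 0 for all 40, with a median of 0.35, and 1 was called (background 1.83% higher and 3.4% lower). The difference of the responses at 4 h was also above 0 for all 40. It had a median of 0.52 and 0 called (background 0.277% and 0.412%). The 40 genes share each library, so that they are not 40 separate observations. Rpl34 of the large subunit stood at 451, 300.1 and 267 CPM in WT control, 235, 382 and 309 at 2 h and 254, 233 and 241 at 4 h, and in TTP-KO at 280, 262 and 299, then 509, 361 and 317, and then 367, 310.0 and 400. Its genotype difference at 4 h was 0.57 ± 0.22 (adjusted p = 0.208).

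**Figure D2:**
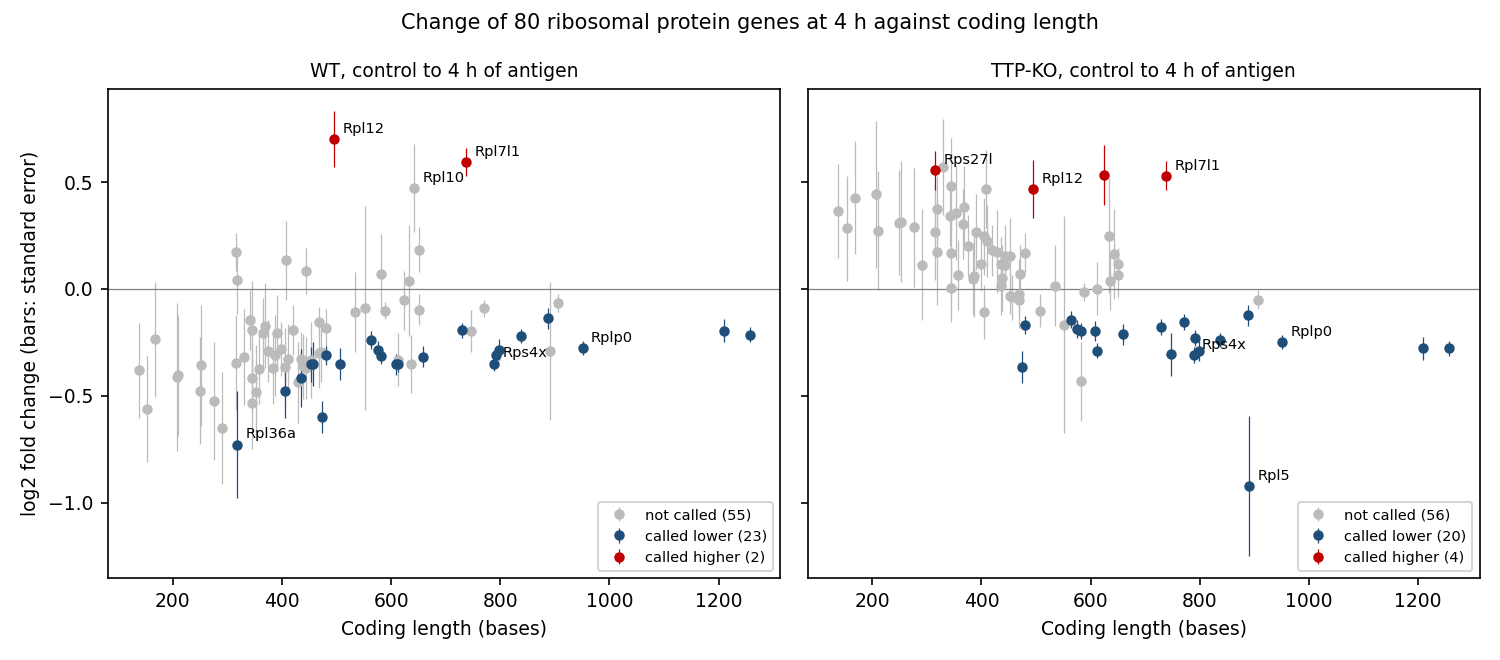
Log2 fold change from control to 4 h (vertical axis, bars showing the standard error) against coding length in bases for 80 members, in WT on the left and TTP-KO on the right, with colour giving the edgeR call. The called falls lie mostly among the longer members in both genotypes, where the bars are short, and the shorter members lie mostly below 0 in WT and above 0 in TTP-KO.

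Single libraries carried much of the spread of the shorter members. Centred on the mean of each gene, the shorter members averaged 0.36, -0.00 and -0.27 in the 3 WT control libraries, -0.24, 0.21 and 0.07 in WT at 2 h and -0.24, -0.35 and -0.22 in WT at 4 h, on the log2 scale. In TTP-KO they averaged -0.13, -0.16 and -0.05 in control, 0.55, 0.12 and -0.01 at 2 h and 0.17, -0.03 and 0.22 at 4 h. The first WT control library and the first TTP-KO library at 2 h stood highest, and the longer members were at 0.10 and 0.06 in them. The 352 other genes with a coding sequence of up to the same length and a mean of 5 or more on the log2 CPM scale followed the shorter members across the 18 libraries (Pearson r = 0.77), and so did 81 nuclear genes of the respiratory chain (r = 0.82), while 4008 longer genes had an r of 0.12. The 81 genes were not limited by length or by that level. They were not taken out of the 352 or the 4008, so these sets are not separate. The 352 genes moved less than the shorter members, with library means from -0.14 to 0.17. Their median spread within groups was 0.095, near the 0.086 of the 4008 longer genes, against 0.22 in the shorter members. The respiratory chain genes ran from -0.19 to 0.22, with a spread of 0.16. The values of r describe libraries that share genes, depth and scaling. Between the genotypes at 4 h, the respiratory chain genes had 10 higher and 1 lower in TTP-KO (background 1.83% higher and 3.4% lower), with a median of 0.28 (Ndufc1 0.76 ± 0.17). The part of transcript length, RNA quality or library preparation in the genotype difference of the shorter members was not tested.

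**Figure D3:**
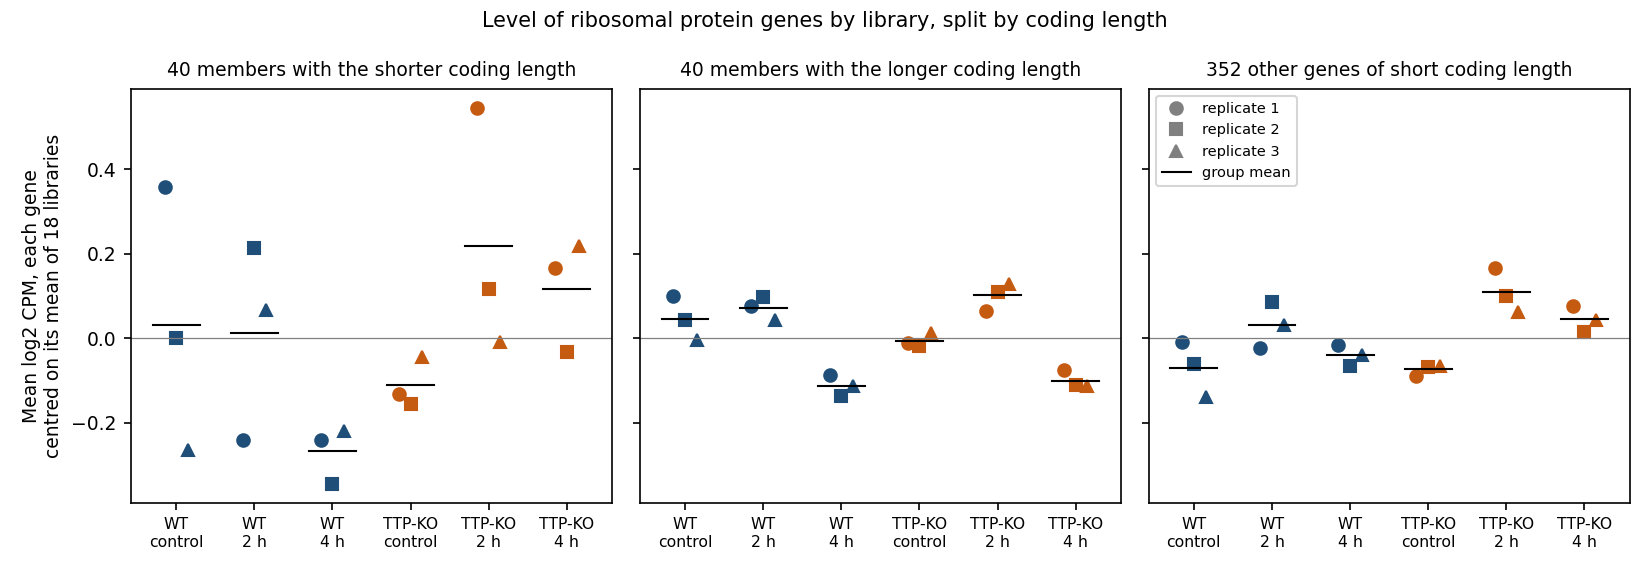
Mean log2 CPM of 3 gene sets in each library (each gene centred on its mean of the 18 libraries), with a point per library, its shape giving the replicate number, and a line at the group mean: the 40 shorter members, the 40 longer members and 352 other short genes. The shorter members run from -0.35 to 0.55, the longer ones from -0.14 to 0.13 and the other short genes from -0.14 to 0.17. All 6 libraries at 4 h lie below 0 among the longer members.

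Pseudogene rows held a large part of the counts of this gene family. In the table, 1171 rows were taken as copies of a member, by sequence (1100 rows, at least 90% identity over at least 50% of the copy) or by a symbol of the -ps form alone (71 rows). Of the members, 79 had at least one such row. These rows took 30.4% to 31.8% of the counts of the family in each library. For 22 members they held more than the member row, and for 5 more than 90%: Rpl13 (98.8%), Rpl17 (97.8%), Rpl12 (92.7%), Rps12 (92.5%) and Rpl10 (92.1%). For Rpl13, the row Gm12918, identical to it over the matched stretch, had a mean of 10140 estimated counts against 121 for the member. For Rps12, the row Rps12-ps3 held 5687 of the mean of 5781 in copy rows, and it was matched by symbol alone. The counts of such a pair are split by estimation and not observed, so the row of either is uncertain. Under 1% in copy rows was found for 26 members. Those of them searched by sequence, among them Rplp0, Rpl7l1, Rps27l and Rpl32, are the firmer ones. Rps3a2 and Rps4l are counted in the 26 but had no coding sequence in the annotation, so no copies of them were searched by sequence. Members were not searched as copies of each other.

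With the copy rows added to their members, 40 members were lower at 4 h in WT and 1 higher (of all genes in that fit, 18.9% lower and 19.7% higher), and the 23 lower on their own rows were all among the 40. In TTP-KO 26 were lower and 3 higher at 4 h (background 17.1% and 18.6%), with all 20 of the falls above included. Of the 22 members with most counts in copy rows, 0 fell and 1 rose at 4 h in WT on their own rows, against 16 and 0 with the copies. Rpl13 then stood at 1444, 1339 and 1213 CPM in WT control and 1070, 1006 and 1054 at 4 h (-0.35 ± 0.05, adjusted p = 1.78e-05), where its own row had 0.04 ± 0.26 (adjusted p = 0.927). In the 26 members above, on their own rows, 10 fell and 1 rose at 4 h in WT (background 18.4% lower and 19.6% higher). In TTP-KO 9 fell and 2 rose (background 16.7% and 18.3%). The medians were -0.32 and 0.01. Rps3a2 and Rps4l, not searched by sequence, were not among those called. From 2 h to 4 h the merged counts were 39 lower and 1 higher in WT (background 16.3% and 15.3%) and 31 lower and 1 higher in TTP-KO (background 16.6% and 14.8%). For the genotype difference at 4 h they were 1 higher and 1 lower (background 1.93% and 3.46%). This addition was chosen after the data were seen.

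**Figure D4:**
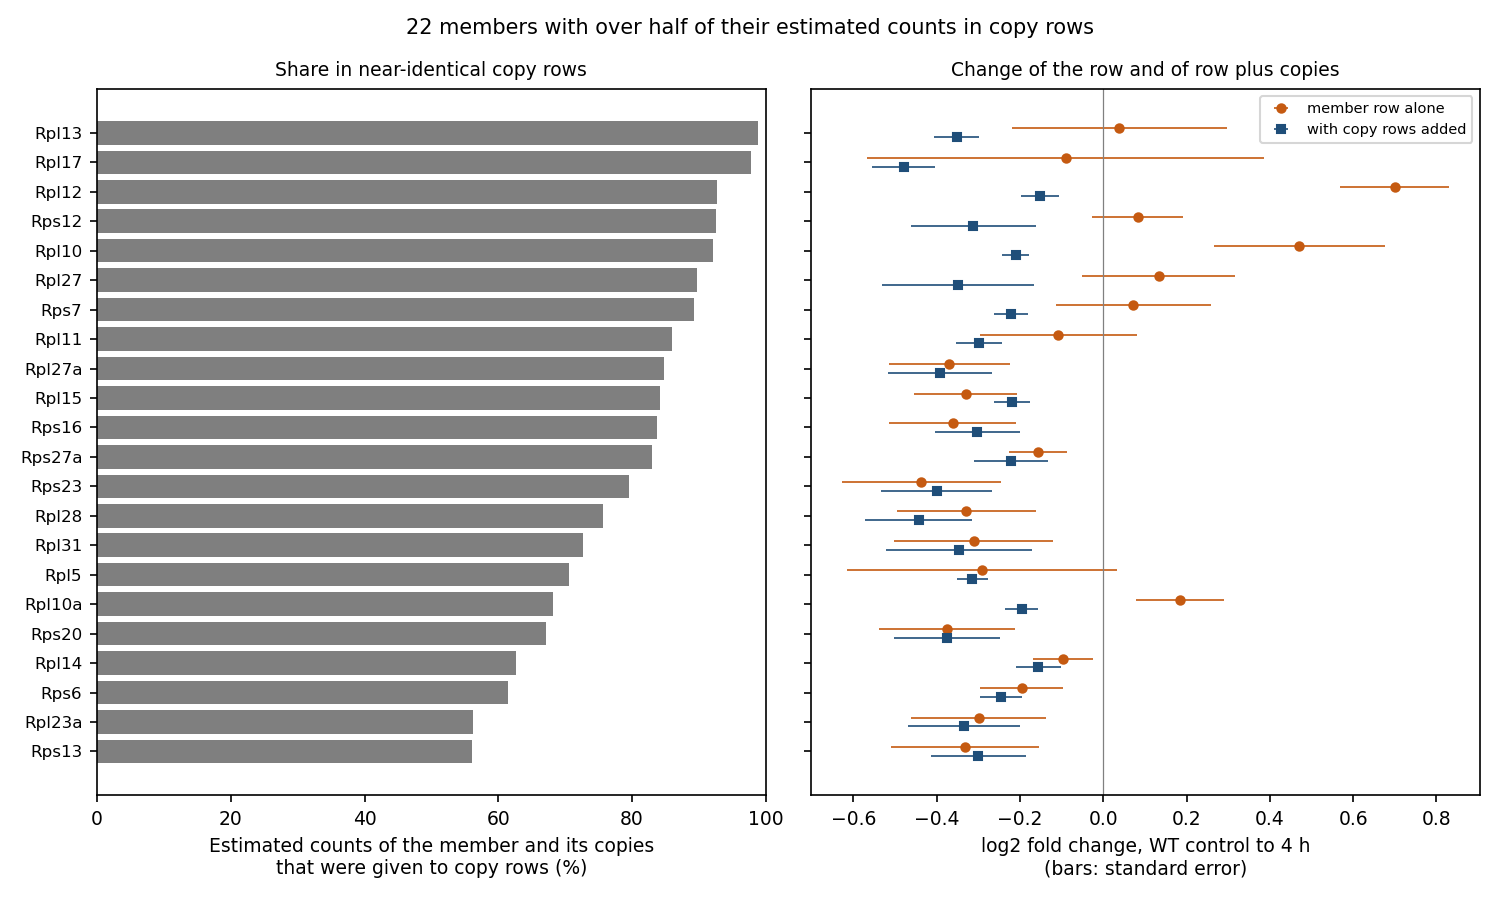
Left, the percentage of estimated counts on copy rows (matched by sequence or by symbol) for the 22 members with most of them there. Right, log2 fold change from control to 4 h in WT with its standard error, for the member row alone (circles) and with the copy rows added (squares): with the copies all 22 values lie between -0.48 and -0.15, where the rows alone run from -0.44 to 0.70.

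The counts of the following lists at 4 h stand beside 19.6% higher and 18.4% lower of all genes in WT, and 18.3% and 16.7% in TTP-KO. Of 31 genes of ribosome biogenesis and ribosomal RNA synthesis, 26 rose in WT and 27 in TTP-KO and none fell, with medians of 0.71 and 0.65. Bysl, an assembly factor of the small subunit, rose by 1.40 ± 0.13 in WT, Myc, a driver of ribosome synthesis, by 1.39 ± 0.18 and by 1.41 ± 0.18 in TTP-KO, and Nolc1, a nucleolar protein, by 1.11 ± 0.10 in TTP-KO. Of 78 mitochondrial ribosomal proteins, 22 rose and 3 fell in WT and 26 rose and 3 fell in TTP-KO. Mrps18b had 0.83 ± 0.12 in WT and 0.77 ± 0.12 in TTP-KO, and Mrps24 -0.84 ± 0.08 and -0.55 ± 0.08. The cytosolic and the mitochondrial ribosomal proteins thus had medians of opposite sign in WT, -0.29 and 0.21.

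Among 18 translation factors and other RNAs reported to be of the TOP class, 8 fell and 3 rose in WT, with a median of -0.17, and 7 fell and 3 rose in TTP-KO. Eif3f, a subunit of an initiation factor, had -0.69 ± 0.05 and -0.72 ± 0.05, and Eef2, which moves the ribosome along the messenger RNA, -0.54 ± 0.04 and -0.49 ± 0.04. Of 4 ribosome genes whose symbols lie outside the rule, Rpsa and Rack1 fell in both genotypes, Rpsa by 0.26 on the log2 scale in WT and by 0.25 in TTP-KO. Of 9 snoRNA host RNAs with a TOP start, 2 rose in each genotype and none fell, with Snhg1 at 0.69 ± 0.13 in WT. Of 28 genes of mTORC1 and TOP messenger RNA control, 10 rose and 9 fell in WT and 8 rose and 8 fell in TTP-KO. Rptor, a subunit of mTORC1, had 1.41 ± 0.11 and 1.58 ± 0.11, and Pdcd4, a repressor of translation, -1.32 ± 0.10 and -1.30 ± 0.10. The nuclear respiratory chain genes had 4 higher and 14 lower in WT, and 20 higher and 4 lower in TTP-KO, of 81 tested, and the 17.3% lower in WT lies near the share of all genes. Between the genotypes at 4 h, 1.83% of all genes were called higher in TTP-KO and 3.4% lower. In that comparison edgeR called 2 mitochondrial ribosomal proteins higher (2.56%). Of the genes of mTORC1 and TOP messenger RNA control, 1 was higher and 1 lower (3.57% each). As above, 10 respiratory chain genes were higher (12.35%) and 1 lower (1.235%).

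**Figure D5:**
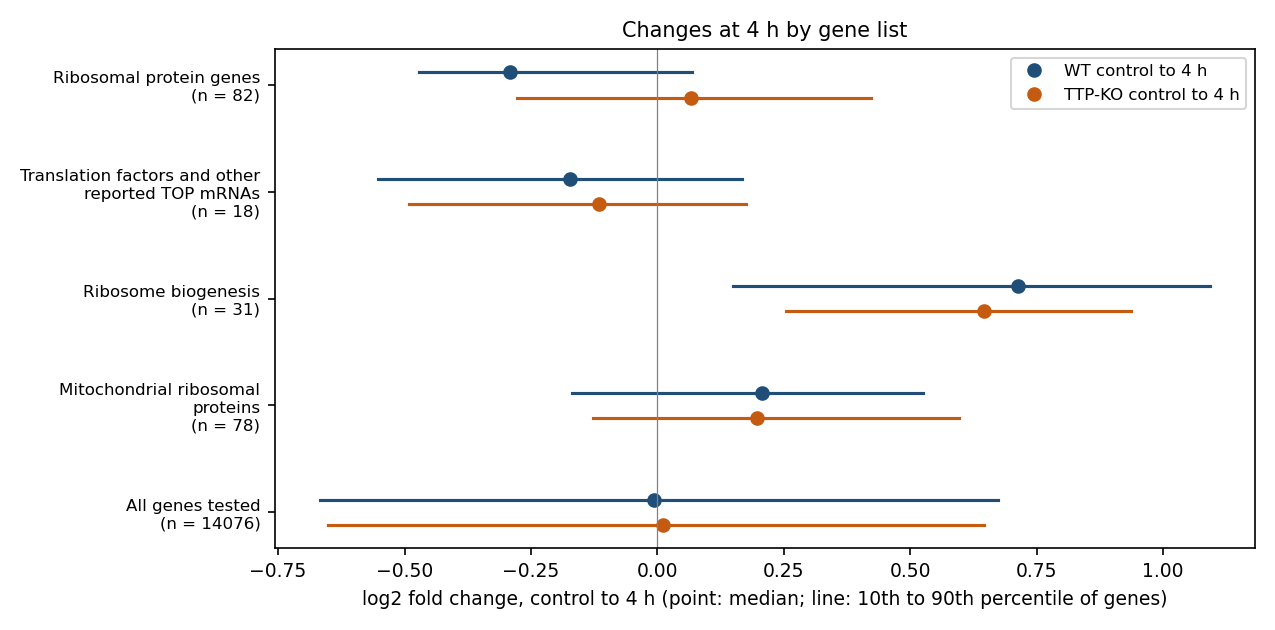
Median log2 fold change from control to 4 h (points) with the 10th to 90th percentile of the genes (lines) for 4 gene lists and all 14076 genes tested, in WT and TTP-KO. The biogenesis genes lie to the right in both genotypes (0.71 and 0.65), and ribosomal protein genes at -0.29 in WT and 0.07 in TTP-KO.

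Members varied together to different degrees across the 18 libraries. Rps19 followed the mean of the other members most closely (Pearson r = 0.98), then Rps24 (0.96), and Rpl12 and Rpl5, both with most counts in copy rows, ran against it (-0.54 and -0.36). Of 6824 genes outside the set that had a mean log2 CPM of 4 or more, the 5 most like the mean of the members included Gm7536 (0.97), Rps23-ps1 (0.97), Uqcrh (0.97) and Rps27a-ps3 (0.96). Gm7536, Rps23-ps1 and Rps27a-ps3 are copy rows of members, and Uqcrh is a short subunit of the respiratory chain. These coefficients rest on libraries that share depth and scaling.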

How the data were processed

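RNA of 18 libraries was measured by bulk RNA sequencing. Per gene, the table the authors deposited gives estimated counts as RSEM makes them (decimals, unequal library sums). Listed in the submitters' processing notes, without roles, are RSEM 1.3.1, STAR 2.7.10a, cutadapt 3.5, the build GRCm39, and R 4.4.0 and 4.4.1. Neither strand setting nor annotation release is given in the sources used here.

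Estimated counts were rounded. edgeR 4.0.16 (R 4.3.3) filtered low rows, scaled by TMM and fitted 1 quasi-likelihood model over all 18 libraries and 6 groups (12 residual degrees of freedom). A run on data simulated from this fit came afterwards. Adjusted p-values are Benjamini-Hochberg over the 14076 genes tested, called under 0.05. CPM are TMM-scaled, and centred log2 CPM used a prior count of 2. Fold changes are given ± SE. Alternatives were RLE scaling, library totals, TMM without the members, no filter, DESeq2 1.42.0, a fit of the compared groups alone, a replicate block, each library left out, and pseudogene rows added. Copy rows and lengths came from GENCODE M21 (GRCm38) by gene identifier and blastn 2.17.0, starts from RefSeq GRCm38.p6. No near-duplicate libraries were found. The members, lists and tests were chosen with earlier results of these data known. Named were, per comparison, up to 4 called members with the largest rise and up to 4 with the largest fall, the paralogs with their counterparts, stalk and 5S partner genes, up to 3 called genes of a list, and 5 genes like the members; Rpl34, Rps24, Rpl4, Rpl13 and Rpl21 were added after their values were seen. Results of some genes are not reported here.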

Additional observations from a re-analysis of the deposited data

Results flagged for a closer look

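For 2 members the genotypes moved in opposite directions from control to 4 h, with every library at 4 h on one side of every control library. Rpl34 had a log2 fold change of -0.484 in WT and 0.357 in TTP-KO (adjusted p = 0.113 and 0.253), and the edgeR test of the difference, 0.84 ± 0.32, was not called (adjusted p = 0.350). Rpl21, another protein of the large subunit, had -0.183 in WT and 0.170 in TTP-KO (adjusted p = 0.121 and 0.162), with a difference of 0.35 ± 0.13 (adjusted p = 0.291). Rpl21 stood at 117, 104 and 94.2 CPM in WT control, 92.1, 93.0 and 92.3 in WT at 4 h, 100.2, 87.2 and 99.2 in TTP-KO control and 113, 103 and 106 in TTP-KO at 4 h.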

How the results depend on the processing

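Of 35 named changes, 15 kept their direction and call in all 18 settings without one library and 9 others. In at least one setting 18 lost their call and in at least one 5 reversed. Rpl19 and Rpl7l1 in WT at 2 h and Rpl12 in TTP-KO at 4 h did both. With library totals, Rpl7l1 and Rpl19 in WT at 2 h were -0.115 and -0.172. With copies added, Rpl12 was -0.151 in WT at 4 h, -0.155 from 2 h to 4 h and -0.026 in TTP-KO at 4 h.

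In WT from control to 2 h, members higher were 4, and 0 with library totals, 1 with no filter and 2 with -ps rows or all copies added (1 to 4 without one library); members lower were 0, and 36 with library totals and 1 with all copies (0 to 1). From control to 4 h, higher were 2, and 4 with no filter and 1 with copies; lower were 23, and 49 with library totals and 40 with copies (19 to 39). From 2 h to 4 h, higher were 2, and 5 with library totals, 4 with no filter and 1 with copies. Lower were 23, and 9 with library totals and 39 with copies (19 to 36). With library totals, all genes lower were 6415, 3718 and 1191 in these comparisons in turn, and all genes higher 1281, 1879 and 4614. With no filter, all genes higher were 2355, 2791 and 2401. With all copies added, 2511, 2744 and 2132 of all genes were higher and 2451, 2636 and 2262 lower. With -ps rows added, 2509 of all genes were higher from control to 2 h.

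In TTP-KO from control to 2 h, higher were 13, and 0 with library totals, 8 with no filter, 23 with the compared groups alone and 20 with DESeq2 (5 to 15 without one library). Lower were 0, and 25 with library totals. All genes higher were 2510, and 1218, 2358, 2602 and 2451 in those settings, and 6458 were lower with library totals. From control to 4 h, higher were 4, and 17 with the compared groups alone and 8 with DESeq2, beside 2577, 2571 and 2324 of all genes. From 2 h to 4 h, higher were 1, and 4 with library totals and 2 with no filter or the compared groups alone (1 to 2). Lower were 23, and 9 with library totals. All genes higher with library totals were 4636, and lower 1237. With no filter 2221 of all genes were higher, and with the compared groups alone 1962.

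Of the genotype comparisons, control had 1 lower with DESeq2, beside 213 of all genes. At 2 h there was 1 higher and 1 lower with no filter, beside 193 and 344 of all genes. At 4 h higher were 1, and 2 with library totals, 3 with no filter or DESeq2 and 32 with the compared groups alone (0 to 1). Lower were 1, and 0 with library totals (0 to 1). Of all genes, 302 were higher with library totals, 335 with no filter, 239 with DESeq2 and 503 with the compared groups alone, and 382 were lower with library totals. For the response at 2 h 1 was higher with no filter, beside 29 of all genes. For that at 4 h 5 were higher with no filter and 1 with DESeq2 (0 to 1), beside 114 and 71 of all genes. The cause of these shifts was not tested. With 18S ribosomal RNA and mitochondrial genes left out of the total, the shares of the member rows were 3.66%, 2.93% and 2.76% in WT control, 2 h and 4 h and 3.51%, 3.10% and 3.13% in TTP-KO.

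The replicate numbers did not pair the libraries: same-numbered libraries of different groups had correlations of -0.0814 to 0.0408 over 45 pairs, and 4 of 18 correlated best with their own number. With a replicate block, 1 member was lower in TTP-KO at 2 h, and Rps7 in WT at 2 h (adjusted p = 0.0684) and Rpl5 in TTP-KO at 4 h (adjusted p = 0.0667) were not called. RLE scaling and TMM without the members moved no count by over 1.5 times.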
